A study of Mus musculus with 12 samples.

Results

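Molecular chaperones were followed in the left ventricle of male mice in which Ddx5, a DEAD-box RNA helicase gene, was deleted in heart muscle cells. The set held every gene row whose symbol belongs to the HSP70, HSP110, HSP60, HSP10, HSP90 or DNAJ family, together with the subunits of the chaperonin CCT, and left out the endoplasmic reticulum (ER) genes Hspa5 and Hsp90b1. It comprised 71 of the 17912 genes listed in either deposited table: 10 HSP70 genes, 3 HSP110 genes, 2 HSP90 genes, the HSP60 and HSP10 genes Hspd1 and Hspe1, 10 CCT genes and 44 J-protein genes. Tcp1, the first CCT subunit, was taken by its exact symbol. The members were taken by gene name, but the set was chosen with earlier results of these data known.

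RNA from 4 groups of 3 libraries was sequenced. The mCKO mice had the genotype DDX5fl/fl MYH6Cre+, in which the promoter of Myh6, a heart muscle myosin gene, drives Cre recombinase, and were untreated and 8 weeks old. Their controls, CTR1, were untreated Ddx5flox/flox mice of the same age. The iCKO mice were Ddx5flox/flox Myh6MerCreMer, with a Cre that tamoxifen activates in heart muscle cells, and received 20 mg/kg/day of tamoxifen for 5 days. CTR2 were Ddx5flox/flox mice given the same tamoxifen, and the design text speaks of collection after 7 days of injection. The age of the tamoxifen-treated mice is not given in the labels used here. Both control groups carried floxed Ddx5 but no Cre, so that an effect of Cre itself cannot be told apart from the loss of Ddx5. The labels do not say that the libraries of a group came from separate animals, and p-values then measure only the spread between these libraries.

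Chaperones bind proteins that are not yet folded or have lost their fold. HSP70 proteins hold short exposed segments in cycles of ATP hydrolysis, J proteins deliver clients to them and start hydrolysis, and HSP110 proteins exchange the nucleotide and end the cycle. HSP90 takes over partly folded clients such as kinases and hormone receptors, and CCT is a ring of 8 different subunits that encloses actin, tubulin and other clients while they fold. Separate members of these families work in mitochondria, where HSP60 and HSP10 form a chamber of their own, and in the ER. Many of the cytosolic genes are induced by heat shock factor 1, which binds repeats of the letters GAA in alternating orientation.

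Levels are given as CPM, a gene's counts scaled to a common library size, with library sizes scaled by the trimmed mean of M-values (TMM) separately in each table, so that a level in one experiment was not tested against a level in the other. Log2 fold changes carry their standard error after ±, sums of levels carry the SD over 3 libraries, and adjusted p-values are those of edgeR's quasi-likelihood test with Benjamini-Hochberg adjustment over all genes tested. A member rose or fell where the adjusted p was under 0.05. Library totals ran from 19682268 to 25871882 counts. Ddx5 stood at 636, 636 and 397 CPM in CTR1 and 233, 232 and 218 CPM in mCKO, 40.9% of its control, and at 566, 697 and 597 CPM in CTR2 and 216, 219 and 192 CPM in iCKO, 33.7% of its control. The 6 heart muscle markers Myh6, Tnnt2, Actc1, Myl2, Ryr2 and Tnni3 summed to between 42520 and 88980 CPM in every library, and none of them was absent. Replicate 3 of CTR1 and replicate 3 of mCKO stood apart from the other libraries of their groups, with marker sums of 57470 and 49420 CPM against 76660 to 88980 CPM, and the results of that experiment are therefore also given without them.

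In iCKO hearts the cytosolic HSP70 and HSP90 genes and the CCT subunits rose, while J proteins went both ways. Of the 71 members, 62 passed the filter on low counts in each comparison, and in iCKO against CTR2 23 of them rose, 10 fell and 29 were not called. Over all 13548 genes tested, 25.2% rose and 19.5% fell, against 37.1% and 16.1% of the members. The rise covered all 5 cytosolic HSP70 genes, both HSP90 genes, 2 of 3 HSP110 genes and all 8 core CCT subunits, while 9 of the 10 that fell were J proteins. The median log2 fold change was 0.23 over the 62 members and 0.03 over all genes tested. Counting as well a change of more than 2-fold, 9 members rose and 2 fell, or 14.5% and 3.23%, beside 15.0% and 9.75% of all genes. Scaling by library size alone moved the median of all genes from 0.03 to 0.24 and gave 4592 genes higher (33.9%) and 1832 lower (13.5%) in place of 3420 and 2648, with 28 members higher and 8 lower. With CTR2 replicate 3 left out, 13 members rose, and with iCKO replicate 3 left out, 16 fell.

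**Figure D1:**
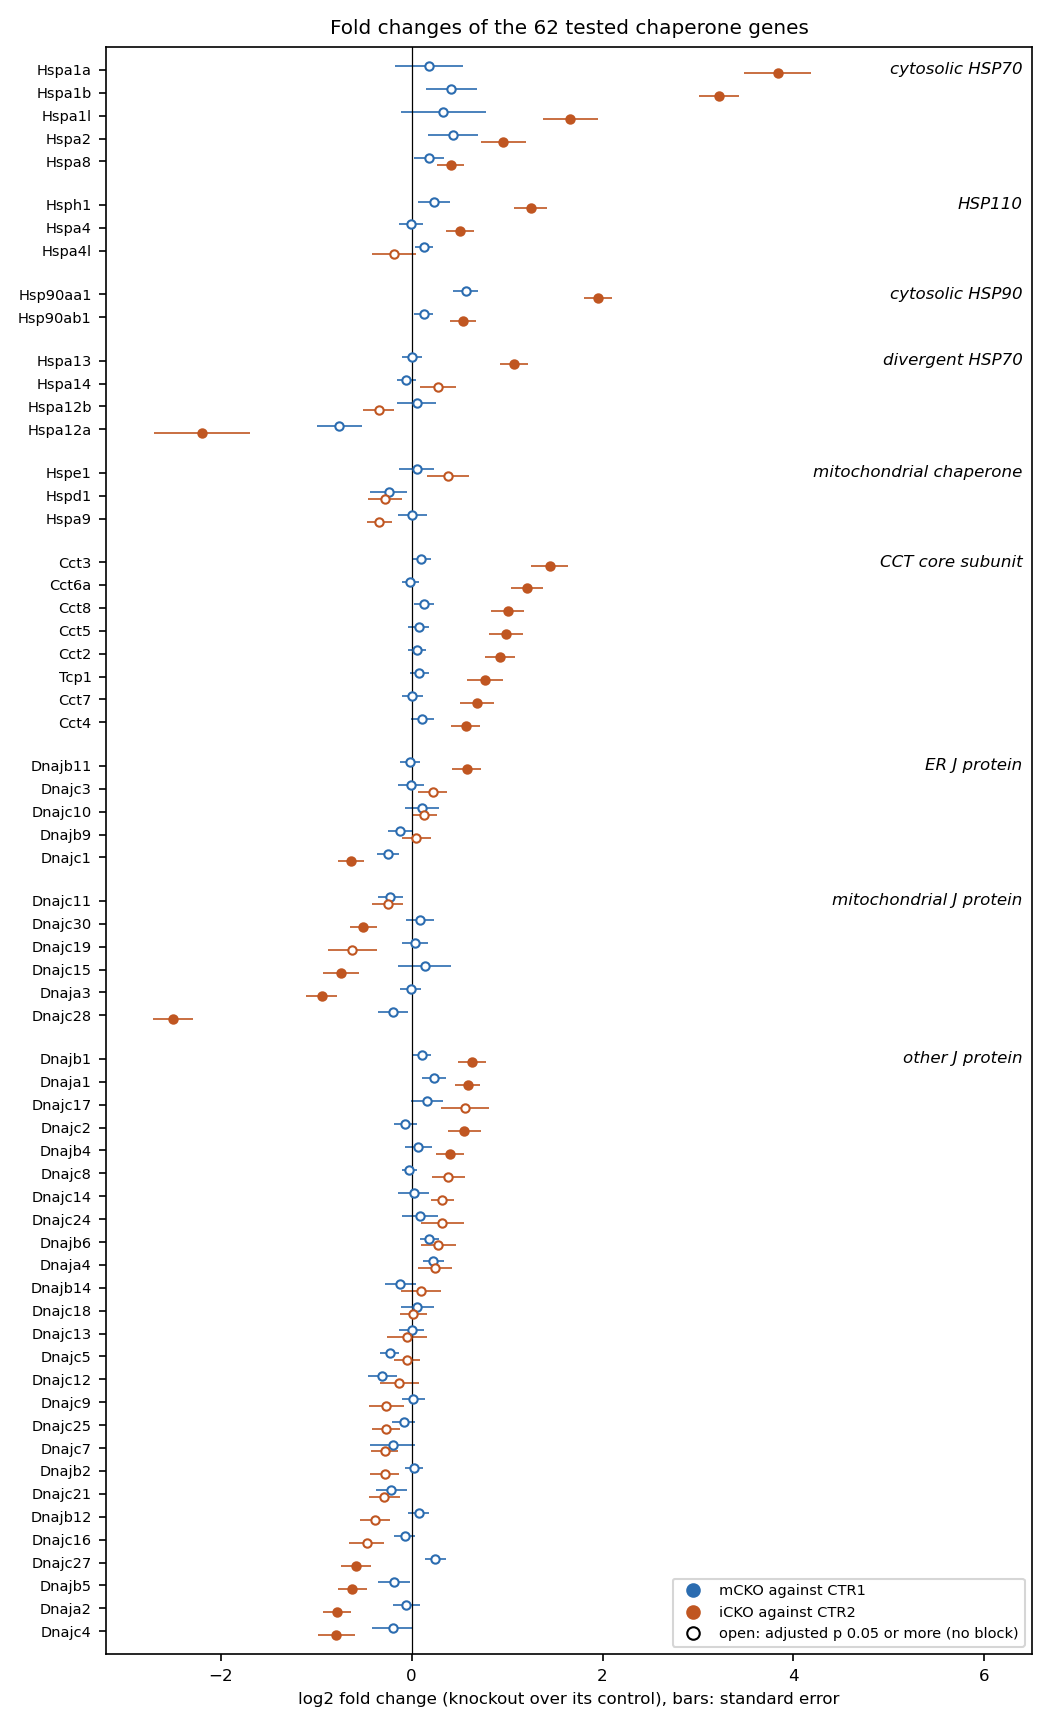
Log2 fold change of each of the 62 tested members, by family, in mCKO against CTR1 and in iCKO against CTR2, with bars for 1 standard error and open symbols where the adjusted p was 0.05 or more without the block. The CCT subunits lie between 0.57 and 1.45 in iCKO and between -0.01 and 0.13 in mCKO, and Hspa1a, at 3.83 in iCKO, lies farthest from 0.

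Cell type markers of the ventricle moved in the same comparison. The 6 heart muscle markers summed to between 42520 and 50920 CPM in iCKO and between 73700 and 83970 CPM in CTR2, and 4 of the 6 fell. The 6 macrophage markers all rose, from a sum of 175 to 226 CPM to one of 459 to 819 CPM. Of the 6 fibroblast markers, 4 rose and 1 fell, with sums of 838 to 903 CPM in CTR2 and 1940 to 3024 CPM in iCKO. Most of the higher sum came from the collagen genes Col1a1, with means of 67.3 and 948.5 CPM, and Col1a2, with 80.6 and 766.6 CPM. Pdgfra, Lum and Pcolce also had higher means in iCKO. Dcn, the highest of the 6 in CTR2, had means of 599.5 CPM there and 386.3 CPM in iCKO. Endothelial markers fell in 4 of 6, with sums of 1028 to 1188 CPM in CTR2 and 648 to 785 CPM in iCKO, and mural markers in 2 of 4, from 782 to 863 CPM to between 325 and 502 CPM. The 5 lymphocyte markers summed to at most 1.86 CPM in both groups, with Cd3e at 0 counts in CTR2, and the 3 adipocyte markers to at most 0.408 CPM. In whole tissue, fewer cells of a type and less RNA per cell cannot be told apart, and the part of these shifts in the changes of the chaperones was not tested.

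Hspa1a and Hspa1b encode the heat-inducible cytosolic HSP70, and they had the largest rises of all members. Hspa1a (chr17:34969190-34972156, minus strand, GRCm38) stood at 2.63, 5.27 and 2.40 CPM in CTR2 and at 33.7, 57.3 and 56.6 CPM in iCKO. Hspa1b (chr17:34956436-34959238, minus strand) stood at 2.83, 3.15 and 2.14 CPM in CTR2 and at 21.8, 29.0 and 25.3 CPM in iCKO. For both genes the lowest iCKO library lay far above the highest CTR2 library. The log2 fold change was 3.83 ± 0.35 for Hspa1a (adjusted p = 1.4e-04) and 3.22 ± 0.21 for Hspa1b (adjusted p = 5.8e-05), or 14.3-fold and 9.36-fold between the means. Among the 13548 genes tested, ranked from the highest log2 fold change, they held places 151 and 257. Their transcripts share 60.3% and 62.3% of their 50-base windows with other HSP70 transcripts, chiefly with each other, so that the split of reads between these neighbours is uncertain. Summed, which removes that split, they gave 6.14 ± 2.03 CPM in CTR2 and 74.6 ± 16.6 CPM in iCKO. The counting tool is not given, and reads that fit both genes may have been left out, which the sum would not restore. The exons of Hspa1a also overlap those of Gm20481 on the opposite strand over 19.0% of their length.

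The promoters were read from RefSeq on GRCm38.p6, from 250 bases before to 50 bases after each listed start, for the 57 members that had a window there. The 14 without one, which were not searched, were Hsp90aa1, Hsp90ab1, Hspa8, Hspa9, Hspa13, Cct4, Dnajc2, Dnajc5, Dnajc5b, Dnajc11, Dnajc12, Dnajc18, Dnajc22 and Dnajc30. A heat shock element was searched as 3 alternating units, GAANNTTCNNGAA or, on the other strand, TTCNNGAANNTTC. Of the member genes with a window 4 held it, 7.02%, against 0.662% of all 27025 genes with one. These 4 stretches are shown because they are the full matches within the set, with the matched letters in capitals.
Hsph1 (chr5:149636282-149636306, minus strand): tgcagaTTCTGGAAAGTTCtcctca
Hspd1 (chr1:55088053-55088082, minus strand): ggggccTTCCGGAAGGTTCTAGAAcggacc
Hspe1 (chr1:55088053-55088082, plus strand): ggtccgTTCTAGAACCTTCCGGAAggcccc
Dnajb6 (chr5:29735846-29735870, plus strand): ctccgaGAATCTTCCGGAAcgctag
Hspd1 and Hspe1 share one stretch, read from opposite strands, since the 2 genes lie head to head. Of these 4 genes Hsph1 rose in iCKO, and the other 3 were not called.

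A shorter match of 2 units, GAANNTTC or TTCNNGAA, overlaps the longer one and was much commoner, in 16 of the 57 member genes, 28.1%, and in 17.0% of all genes. The stretches of the 2 inducible HSP70 genes, of 3 CCT subunits and of 2 J proteins that rose are shown.
Hspa1a (chr17:34972247-34972266, minus strand): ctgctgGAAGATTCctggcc
Hspa1b (chr17:34959329-34959348, minus strand): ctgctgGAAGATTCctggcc
Cct2 (chr10:117063404-117063423, minus strand): agtgaaGAAGTTTCtagcag
Cct5 (chr15:31601867-31601886, minus strand): ggccgaTTCCAGAAgctact
Cct6a (chr5:129787374-129787393, plus strand): agacttTTCGAGAAgacccc
Dnaja1 (chr4:40722338-40722357, plus strand): cctctaGAAAATTCtacgag
Dnajb4 (chr3:152193846-152193865, minus strand): tcgctgTTCTAGAAagtaca
Hspa1a and Hspa1b carry the same letters, 104 bases before their start, and their 300-base windows differ at 4 positions. The 3-unit match of Hsph1 and the 2-unit match of Cct6a lie just after the listed start, and the others shown lie before it. Hsph1 also holds a 2-unit match before its start, at -33 and -54 counted from its 2 listed starts. Of the 14 tested members with such a match 8 rose and 1 fell in iCKO, with a median log2 fold change of 0.50. Of the 36 with a window but no match 9 rose and 8 fell, with a median of -0.12. These counts take Hspa1a and Hspa1b, and Hspd1 and Hspe1, as separate genes, although each pair shares its match. They also leave out Hsp90aa1, Hsp90ab1, Hspa8, Hspa13, Cct4 and Dnajc2, which rose but had no window. Whether the match had a part in the rises was not tested. Over all tested genes that had a promoter window, 26.2% of those with the match and 24.8% of those without it rose.

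The other cytosolic HSP70 genes changed less. Hspa8, the constitutive HSP70 of all cells, stood at 1406, 1379 and 1495 CPM in CTR2 and at 1731, 1824 and 2124 CPM in iCKO, with no overlap. Its log2 fold change was 0.41 ± 0.14 (adjusted p = 0.048), and the call was lost in every fit that left out 1 of the 6 libraries, with adjusted p-values from 0.051 to 0.15. Hspa2, a form abundant in the testis, rose from 7.19, 8.15 and 5.51 CPM to 11.6, 17.6 and 11.4 CPM, by 0.96 ± 0.24 (adjusted p = 0.012, and 0.054 without CTR2 replicate 3). Hspa1l, next to Hspa1a on the opposite strand, rose by 1.66 ± 0.29 (adjusted p = 0.0023), from between 6.78 and 16.1 CPM to between 32.5 and 39.5 CPM. An antisense gene, Gm10501, covers 71.9% of the exons of Hspa1l, and whether counting used the strand is not given in the sources used here. Hspa1l also shares 9.6% of its 50-base windows with Hspa1a and Hspa1b, and the part of their reads in its rise was not tested. Pseudogenes share 51.4% of the 50-base windows of Hspa8.

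**Figure D2:**
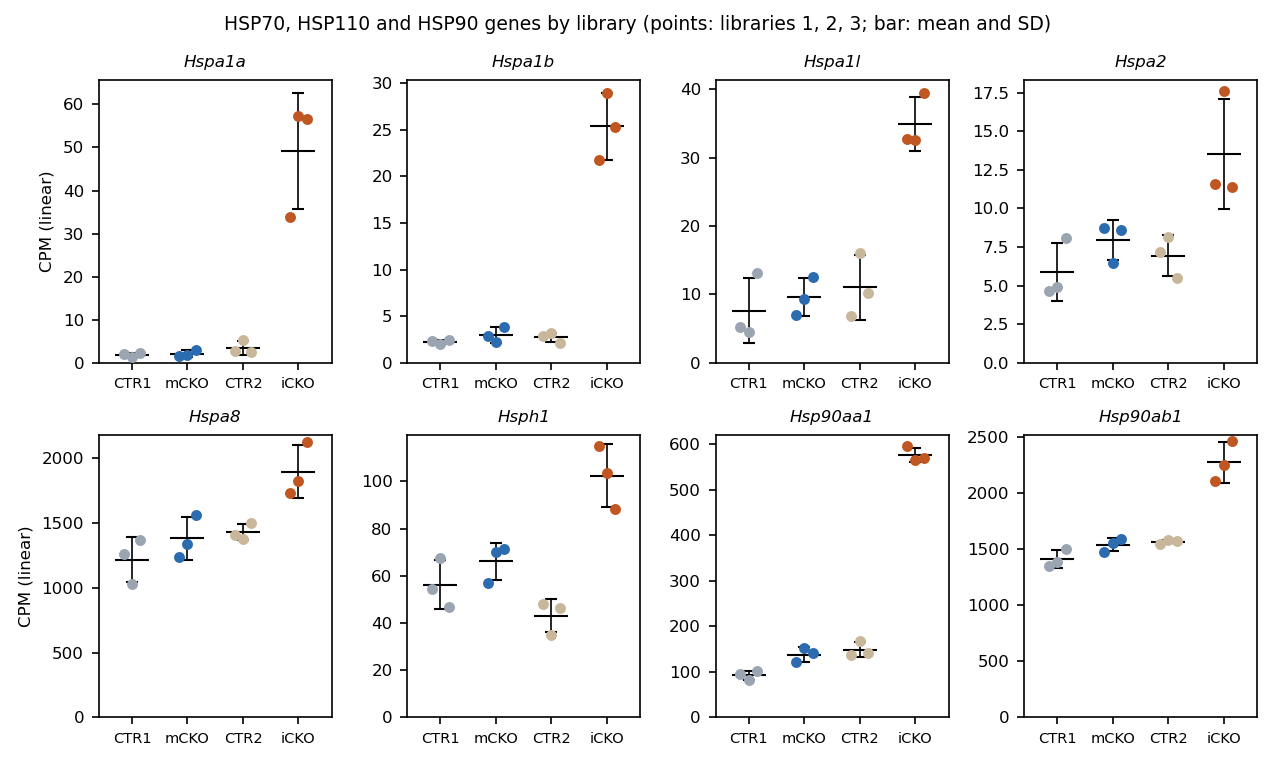
TMM-scaled CPM of 8 HSP70, HSP110 and HSP90 genes in each of the 12 libraries, on linear axes from 0, with 1 panel per gene, points for libraries and bars for the group mean and SD. Hspa1a lies between 33.7 and 57.3 CPM in iCKO and between 1.36 and 5.27 CPM in the other 9 libraries.

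By level per kilobase of transcript, Hspa8 stayed the highest cytosolic HSP70 gene, and the order of the others changed. In CTR2 the means were 4.45 CPM per kb for Hspa1l, 2.75 for Hspa2, 1.16 for Hspa1a and 0.967 for Hspa1b. In iCKO they were 16.6 for Hspa1a, 14.1 for Hspa1l, 9.05 for Hspa1b and 5.36 for Hspa2. Hspa1a and Hspa1b lay below Hspa2 in every CTR2 library and above it in every iCKO library. In iCKO Hspa1a and Hspa1l did not differ beyond their spread, and Hspa1a was lower in replicate 1 (11.37 against 13.25). The separate values of Hspa1a and Hspa1b rest on the uncertain split of their reads. Their shares against Hspa8 below also rest on how shared reads were counted, which is not given. Hspa8 had 596 ± 25.4 CPM per kb in CTR2 and 791 ± 85.8 in iCKO, while Hspa1a rose from 1.16 ± 0.538 to 16.6 ± 4.52 CPM per kb. Hspa1a and Hspa1b made up 0.358% ± 0.129 of the per-kb sum of the 3 genes in CTR2 and 3.13% ± 0.586 in iCKO. In CTR1 and mCKO the shares were 0.280% ± 0.00783 and 0.303% ± 0.0597. Among the 69 members of that table ranked by this level, Hspa1a went from place 61 in CTR2 to place 36 in iCKO, and Hspa1b from 62 to 46.

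The HSP110 genes encode the large relatives of HSP70 that act as nucleotide exchange factors. Hsph1, the heat-inducible one, rose from 47.9, 35.0 and 46.5 CPM in CTR2 to 115, 104 and 88.5 CPM in iCKO, by 1.25 ± 0.18 (adjusted p = 8.6e-04). Hspa4 stood at 220.4, 186 and 207 CPM and at 276, 283 and 314 CPM, a log2 fold change of 0.51 ± 0.14 (adjusted p = 0.021). The call on Hspa4 was lost without CTR2 replicate 1, 2 or 3 or iCKO replicate 2, with adjusted p-values from 0.0505 to 0.083. Hspa4l, at 59.7, 51.8 and 54.8 CPM and at 60.2, 54.0 and 31.9 CPM, was not called (-0.19 ± 0.23, adjusted p = 0.53).

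Both cytosolic HSP90 genes rose, and the inducible form rose more. Hsp90aa1 stood at 137, 168 and 142 CPM in CTR2 and at 595, 566 and 569 CPM in iCKO, a 3.87-fold difference of the means with a log2 fold change of 1.95 ± 0.15 (adjusted p = 8.3e-05). Hsp90ab1, the constitutive form, stood at 1551, 1582 and 1574 CPM and at 2109, 2251 and 2466 CPM, with 0.54 ± 0.14 (adjusted p = 0.013, and 0.063 and 0.067 without CTR2 replicate 1 and replicate 3). In neither gene did the groups overlap. Per kilobase, Hsp90aa1 supplied 6.79% ± 0.647 of the 2 genes' sum in CTR2 and 16.4% ± 1.38 in iCKO. The corresponding shares were 4.81% ± 0.443 in CTR1 and 6.42% ± 0.521 in mCKO. Pseudogenes share 58.5% of the 50-base windows of Hsp90aa1, so its count may hold or lose such reads.

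All 8 core subunits of CCT rose together in iCKO. Cct3, with the largest change, stood at 109, 97.8 and 108 CPM in CTR2 and at 232, 266 and 364 CPM in iCKO, by 1.45 ± 0.19 (adjusted p = 6.7e-04). Cct6a rose from 98.5, 89.5 and 97.9 CPM to 189.5, 208 and 263 CPM, by 1.21 ± 0.17 (adjusted p = 7.5e-04). Cct2 went from 117, 141 and 122 CPM to 219, 227 and 274 CPM, by 0.92 ± 0.16 (adjusted p = 0.0021). In each of these the 3 iCKO libraries lay above the 3 CTR2 libraries, and so they did for the other 5, as did 31.9% of all genes tested (27.0% lay below). Tcp1 rose from 211, 208 and 195 CPM to 301, 299 and 444 CPM, by 0.77 ± 0.19 (adjusted p = 0.011), and Cct5 by 0.99 ± 0.17 (adjusted p = 0.0025). The Cct8 mean was 2.01-fold higher in iCKO (adjusted p = 0.0020). The smallest changes were those of Cct7, 0.68 ± 0.18 (adjusted p = 0.015), and Cct4, 0.57 ± 0.16 (adjusted p = 0.018). Other genes overlap 15.3% of the exons of Cct6a, among them Psph on the opposite strand. For Tcp1 the overlap is 16.9%, with Mrpl18 and Acat3 on the opposite strand among the genes. The part of their reads in these rises was not tested.

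The sum of the 8 subunits was 1114 ± 22.3 CPM in CTR2 and 2128 ± 408 CPM in iCKO, 1.91-fold, with library sums of 1831, 1959 and 2593 CPM. Replicate 3 was the highest iCKO library for each subunit. Per kilobase, the coefficient of variation across the 8 subunits was 24.1% ± 1.27 in CTR2 and 23.7% ± 2.51 in iCKO, and 24.7% ± 1.71 and 25.4% ± 1.85 in CTR1 and mCKO. Cct5 stood highest and Cct6a lowest in CTR1 and mCKO. For Cct6a the longest transcript was used, since no principal one is marked, so its place rests on that length. In iCKO Cct5, at 161 ± 33.1 CPM per kb, and Cct3, at 145 ± 34.7, did not differ beyond their spread. Calls were lost for Cct4 without CTR2 replicate 1 (adjusted p = 0.067) or 3 (0.096) or iCKO replicate 2 (0.051), for Cct7 without CTR2 replicate 1 (0.053) or 3 (0.067), and for Tcp1 without CTR2 replicate 3 (0.054). The paralogs Cct6b and Cct8l1 were at most at 0.587 CPM in any library and were not tested.

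**Figure D3:**
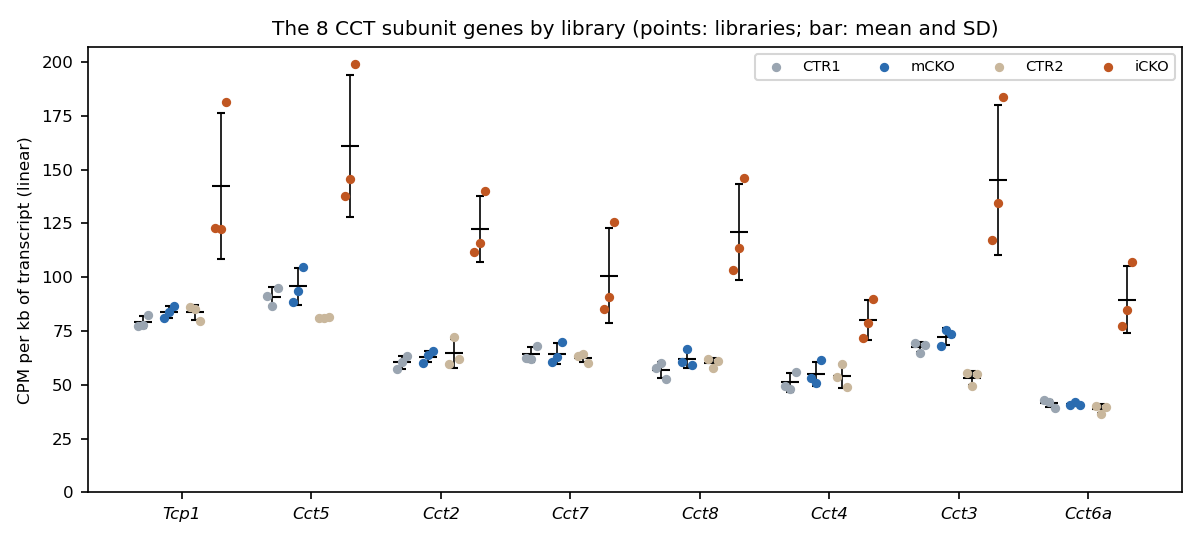
Level per kilobase of transcript (TMM-scaled CPM per kb, linear axis) of the 8 core CCT subunits, with points for the libraries of the 4 groups and bars for the group mean and SD. Every iCKO library lies above every CTR2 library for each subunit, and iCKO replicate 3 is the highest of its group, while the subunits of CTR1 and mCKO lie between 39.3 and 105 CPM per kb.

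The 4 HSP70 relatives with divergent sequence went different ways. Hspa13, a short form with an ER signal, rose from 21.6, 18.2 and 19.5 CPM in CTR2 to 39.3, 46.6 and 38.6 CPM in iCKO, by 1.07 ± 0.15 (adjusted p = 8.2e-04). Hspa12a, a distant relative, stood at 62.9, 13.8 and 44.6 CPM in CTR2 and at 11.7, 8.91 and 5.78 CPM in iCKO, and fell by 2.20 ± 0.50 on the log2 scale (adjusted p = 0.0081). The second CTR2 library lay close to the iCKO libraries, and the adjusted p was 0.063 without both replicate 3 libraries. Hspa12b, known from endothelial cells, had -0.34 ± 0.16 (adjusted p = 0.12), and Hspa14, a ribosome-associated form, 0.28 ± 0.19 (adjusted p = 0.25).

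None of the 3 mitochondrial folding genes of the set was called in iCKO. Hspa9, the mitochondrial HSP70, stood at 1144, 1146 and 1054 CPM in CTR2 and at 909, 876 and 859 CPM in iCKO, without overlap, with -0.34 ± 0.13 (adjusted p = 0.067, and 0.0066 by DESeq2). Hspd1, which encodes HSP60, stood at 452, 311 and 419 CPM and at 351, 329 and 294 CPM (-0.28 ± 0.18, adjusted p = 0.23). Hspe1, which encodes its lid HSP10, stood at 85.5, 75.9 and 67.5 CPM and at 82.7, 80.5 and 135 CPM (0.38 ± 0.22, adjusted p = 0.19). The groups overlapped for Hspd1 and Hspe1, and iCKO replicate 3 was the high library for Hspe1. Hspd1 shares 44.8% of its 50-base windows with pseudogenes.

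Of the 6 J proteins assigned here to mitochondria 4 fell in iCKO and none rose, beside 19.5% and 25.2% of all genes. Dnajc28, a J protein of little known function that is counted here with the mitochondrial ones, had the deepest fall of the set, from 67.0, 58.9 and 59.7 CPM in CTR2 to 14.0, 10.4 and 8.27 CPM in iCKO. It fell by 2.50 ± 0.21 on the log2 scale (adjusted p = 1.0e-04), to 17.6% of its control mean. Dnaja3, the J partner of the mitochondrial HSP70, fell from 216, 188 and 201 CPM to 120.3, 107 and 87.9 CPM, by 0.94 ± 0.16 (adjusted p = 0.0021). Dnajc15, a J protein of the import motor, fell from 70.7, 64.4 and 62.6 CPM to 37.4, 31.2 and 49.6 CPM, by 0.74 ± 0.19 (adjusted p = 0.012). In these 3 genes and in Dnajc30 no iCKO library reached the lowest CTR2 library, as in 27.0% of all genes tested. Dnajc30 fell by 0.51 ± 0.14 (adjusted p = 0.021), a call lost without CTR2 replicate 1 or 3 or iCKO replicate 1 or 2 (adjusted p from 0.057 to 0.088) and under scaling by library size (0.10). Its exons overlap those of Bud23 on the opposite strand over 26.2% of their length. Dnajc19, another import motor component, had -0.62 ± 0.26 (adjusted p = 0.078, and 0.0040 without iCKO replicate 3), and Dnajc11 had -0.25 ± 0.16 (adjusted p = 0.23).

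Among the 5 J proteins assigned here to the ER 1 rose and 1 fell. Dnajb11, a partner of the ER HSP70, rose by 0.58 ± 0.15 (adjusted p = 0.014), from between 44.5 and 52.3 CPM to between 61.4 and 77.4 CPM. The call was lost without CTR2 replicate 3 (adjusted p = 0.067) or iCKO replicate 2 (0.054). Dnajc1, a membrane J protein, fell by 0.63 ± 0.14 (adjusted p = 0.0065), from between 35.6 and 40.5 CPM to between 23.3 and 26.7 CPM. Dnajb9, Dnajc3 and Dnajc10, which serve ER quality control, had 0.05 ± 0.15, 0.22 ± 0.15 and 0.13 ± 0.13. Dnajc3 was the member whose promoter window held the ER stress response element, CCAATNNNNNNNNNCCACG on either strand, found in 0.137% of all genes.
Dnajc3 (chr14:118937821-118937851, plus strand): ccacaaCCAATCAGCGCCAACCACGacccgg
The ER chaperones left out of the set gave 0.24 for Hspa5 (adjusted p = 0.42), 0.58 for Hsp90b1 (adjusted p = 0.068) and 0.63 for Hyou1 (adjusted p = 0.043).

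Of the 26 tested J proteins not assigned here to mitochondria or the ER 4 rose, 4 fell and 18 were not called, with a median of -0.05. Both shares lay below the 25.2% and 19.5% of all genes. This group took every J protein without an assignment, so ER or mitochondrial ones among them are not excluded. Dnajb1, the heat-inducible partner of HSP70, stood at 22.5, 21.1 and 22.5 CPM in CTR2 and at 30.7, 33.1 and 38.4 CPM in iCKO, and rose by 0.63 ± 0.15 (adjusted p = 0.0087). Dnaja1, a farnesylated J protein, rose from 63.0, 55.8 and 54.8 CPM to 87.3, 87.0 and 86.8 CPM, by 0.59 ± 0.13 (adjusted p = 0.0070). Dnaja2, its close relative, went the other way, from 349, 417 and 354 CPM to 226, 207 and 216 CPM, and fell by 0.78 ± 0.15 (adjusted p = 0.0030). In all 3 the groups were apart, so that 2 J proteins of the same class moved in opposite directions. Dnajb5 fell from 137, 139 and 106 CPM to 80.5, 82.0 and 85.8 CPM, by 0.62 ± 0.15 (adjusted p = 0.011). Dnajb4 stood at 132, 143 and 116 CPM and at 166, 186 and 167 CPM, with 0.41 ± 0.15 (adjusted p = 0.04995), at the edge of the threshold and lost in 4 of the 6 fits without 1 library (CTR2 replicate 1 or 3, iCKO replicate 1 or 2).

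Dnaja4, at 134, 105 and 135 CPM and at 174, 136 and 132 CPM, and Dnajb6, at 61.1, 95.2 and 77.2 CPM and at 84.7, 95.8 and 103 CPM, were not called (0.25 ± 0.17 and 0.28 ± 0.19). The exons of Dnaja4 overlap those of Wdr61 on the opposite strand over 44.1% of their length. Dnajc2, a ribosome-associated J protein, had 0.55 ± 0.17 (adjusted p = 0.030), lost without CTR2 replicate 1 (0.12) or 3 (0.11) or iCKO replicate 2 (0.053) or 3 (0.056). Dnajc4 fell by 0.79 ± 0.20 (adjusted p = 0.012), and Dnajc27, which has a small GTPase domain, fell by 0.58 ± 0.16 (adjusted p = 0.016, and 0.077 without CTR2 replicate 3). Scaling by library size alone ended the call on Dnajc27 (adjusted p = 0.098). The 18 that were not called lay between -0.47 for Dnajc16 and 0.56 for Dnajc17.

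**Figure D4:**
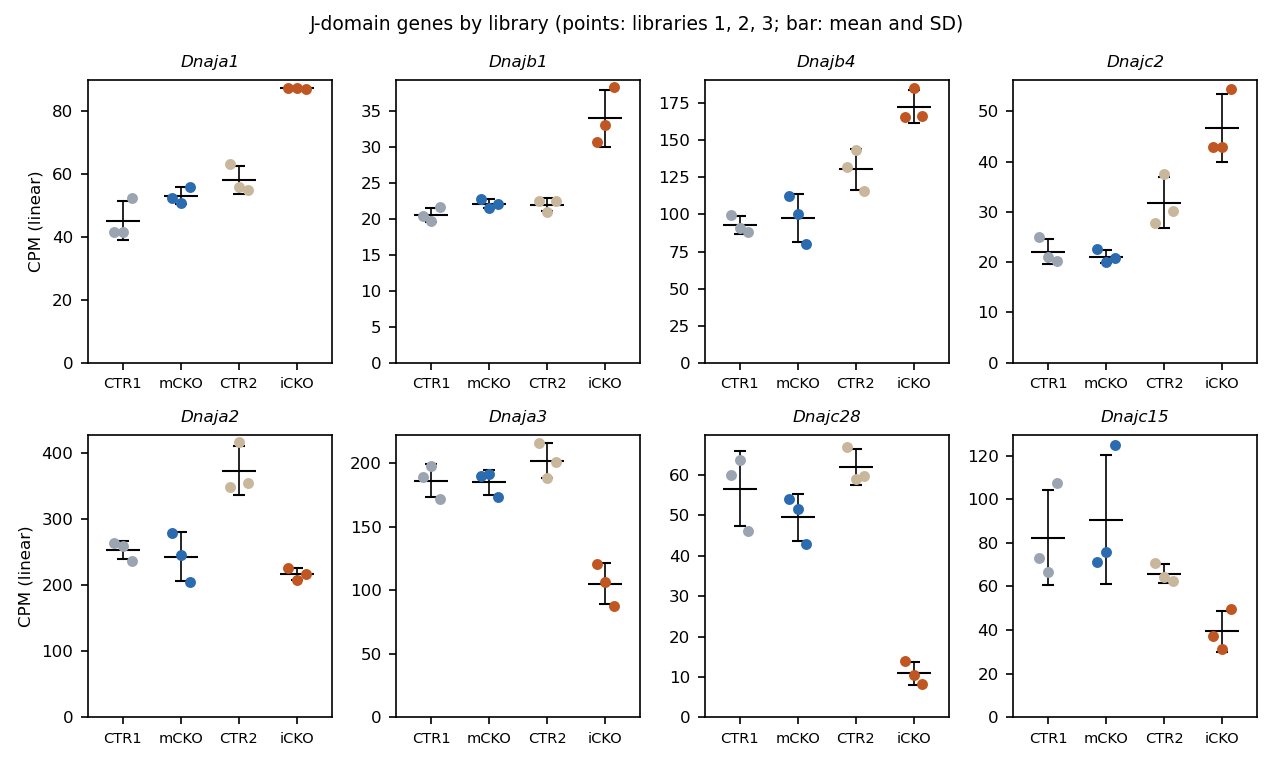
TMM-scaled CPM of 8 J-protein genes in each library of the 4 groups, on linear axes from 0, with points for libraries and bars for the group mean and SD. Dnajc28 lies between 8.27 and 14.0 CPM in iCKO and between 42.9 and 67.0 CPM in the other groups, while Dnaja1 and Dnaja2 move in opposite directions in iCKO.

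Summed, the J-protein genes listed in that table, all but Dnajb7 and Dnajc5g, reached 2597 ± 94.2 CPM in CTR2 and 2272 ± 15.1 CPM in iCKO, 0.875-fold, while all its members together reached 8897 ± 103 and 11130 ± 758 CPM, 1.25-fold. Hsp90ab1, Hspa8 and Hspa9 held places 1 to 3 by level per kilobase in each of the 4 groups. In CTR2, Hsp90ab1 had 623 ± 6.36 CPM per kb and Hspa8 had 596 ± 25.4, and in iCKO they had 903 ± 71.3 and 791 ± 85.8. In CTR1 they had 561 ± 31.0 and 508 ± 72.6 and in mCKO 612 ± 23.6 and 577 ± 69.4, and in each group the gap between them was smaller than the sum of their SDs. Hsp90aa1 moved from place 20 in CTR2, at 45.4 ± 5.03 CPM per kb, to place 4 in iCKO, at 176 ± 4.80.

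In mCKO hearts few chaperones were called. In its main fit without pairing edgeR called no gene, and so not Ddx5 either, which stood at 40.9% of its control. Without pairing, 0 of the 62 tested members were called and 2 had an unadjusted p under 0.05, as 0.0% of all 13353 genes were called by edgeR or limma-voom, 1164 had an unadjusted p under 0.05 by edgeR, and DESeq2 called 310 genes (2.32%) and 1 member, Hsp90aa1. Libraries with the same replicate number deviated together in this experiment (r from 0.466 to 0.824). CTR1 and mCKO replicates 1 and 2 did so as strongly across numbers (r = 0.531 and 0.553), so that only the replicate 3 libraries stood apart as a pair. With the replicate number as a block 2 members rose and 3 fell, 3.23% and 4.84%, against 7.32% and 6.45% of all genes. With both library-size scaling and the block the members' split was 8 higher and 1 lower, against 11.8% and 3.55% of all genes. The mCKO and CTR1 libraries did not overlap for 4 members that were higher and 3 that were lower, or for 7.69% and 7.3% of all genes. The cytosolic HSP70, HSP110 and CCT genes gave no call under the block.

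Hsp90aa1 stood at 96.3, 81.9 and 101 CPM in CTR1 and at 121, 152 and 140.4 CPM in mCKO, with no overlap. Its log2 fold change was 0.57 ± 0.13 without the block (adjusted p = 0.27) and 0.56 ± 0.10 with it (adjusted p = 0.011). Dnaja1 stood at 41.4, 41.6 and 52.2 CPM and at 52.4, 50.8 and 55.9 CPM, higher in mCKO within each replicate number. It gave 0.23 ± 0.12 without the block (adjusted p = 0.70) and 0.24 ± 0.07 with it (adjusted p = 0.049). Hspa12a stood at 88.3, 78.3 and 52.5 CPM and at 49.0, 47.2 and 33.2 CPM, with every mCKO library under every CTR1 library. Its values were -0.76 ± 0.24 (adjusted p = 0.41) and, with the block, -0.75 ± 0.07 (adjusted p = 1.1e-04). Hspa12a was thus lower in both experiments, the iCKO call being made without a block.

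Hspd1 stood at 444, 441 and 338 CPM in CTR1 and at 359.6, 404 and 270.1 CPM in mCKO, with overlapping groups but a lower mCKO library at each number. It gave -0.24 ± 0.19 (adjusted p = 0.87) without the block and -0.25 ± 0.07 (adjusted p = 0.029) with it. Dnajc5, the synaptic vesicle protein CSP alpha, stood at 126, 126 and 110.3 CPM and at 102, 109 and 97.6 CPM, with -0.23 ± 0.10 (adjusted p = 0.60) and, with the block, -0.23 ± 0.06 (adjusted p = 0.032). Without both replicate 3 libraries the adjusted p, with no block, was 0.042 for Hsp90aa1, 0.035 for Dnaja1, 0.0017 for Hspa12a, 0.046 for Dnajc5 and 0.098 for Hspd1. In the mCKO experiment the heart muscle markers summed to between 57470 and 88980 CPM in CTR1 and between 49420 and 77990 CPM in mCKO. Macrophage markers summed to between 259 and 324 CPM and between 352 and 520 CPM. Fibroblast markers summed to between 851 and 1389 CPM and between 913 and 1628 CPM. With the block 4 of 6 heart muscle markers fell, and 6 of 6 macrophage markers and 3 of 6 fibroblast markers rose, and their part in the changes of these 5 chaperones was not tested.

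In mCKO Hsp90aa1 was not called by edgeR without the block. It was called with the block, by DESeq2, and without both replicate 3 libraries (above). With TMM scaling, the other genes with the largest rises in iCKO were not called in mCKO with or without the block. Hspa1a stood at 1.91, 1.36 and 2.32 CPM in CTR1 and at 1.53, 1.76 and 3.02 CPM in mCKO, and Hspa1b at 2.35, 1.99 and 2.41 CPM and at 2.89, 2.21 and 3.86 CPM. The groups overlapped for both. Hspa8 stood at 1260, 1025 and 1364 CPM and at 1240, 1338 and 1564 CPM, and Hsph1 at 54.3, 67.7 and 46.9 CPM and at 56.8, 70.1 and 71.3 CPM. The CCT subunits had log2 fold changes between -0.01 and 0.13, and their sum was 1136 ± 27.5 CPM in CTR1 and 1193 ± 53.5 CPM in mCKO.

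Whether a member changed differently in the 2 models was tested in all 12 libraries as the mCKO effect minus the iCKO effect. Of the 62 members 10 had a lower value in this difference and 4 a higher one, or 16.1% and 6.45%, against 9.88% and 11.0% of the 13871 genes tested, which makes 22.6% of the members and 20.8% of all genes. The lower ones, which rose more in iCKO than in mCKO, were Hspa1a (-3.62 ± 0.52, adjusted p = 8.3e-04), Hspa1b (-2.77 ± 0.32, adjusted p = 2.3e-04), Hsp90aa1 (-1.35 ± 0.19, adjusted p = 8.1e-04), Hspa13, Hsph1 and the CCT subunits Cct2, Cct3, Cct5, Cct6a and Cct8. The 5 subunits lay between -1.32 and -0.83. Cct4, Cct7 and Tcp1, at -0.42, -0.65 and -0.65, were not called. The higher ones were Dnajc28 (2.35 ± 0.26, adjusted p = 1.7e-04), Dnaja3 (0.97 ± 0.18, adjusted p = 0.0034), Dnajc27 (0.87 ± 0.18, adjusted p = 0.0059) and Dnaja2 (0.76 ± 0.20, adjusted p = 0.018).

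Dnaja2 stood at 263, 259 and 237 CPM in CTR1 and at 279, 245 and 205 CPM in mCKO, and its difference lost its call in 4 of 12 fits without 1 library (CTR1 replicate 3, iCKO replicate 2, mCKO replicate 1 or 2), with adjusted p-values from 0.050 to 0.054. Dnaja3 stood at 189, 197 and 172 CPM and at 189, 191 and 174 CPM, and Dnajc28 at 60.0, 63.8 and 46.1 CPM and at 54.0, 51.6 and 42.9 CPM. With the replicate block, 7 members were higher and 11 lower, beside 14.8% and 13.3% of all genes, the additions being Hspa1l (-1.26, adjusted p = 0.039), Dnajc15 (0.92, adjusted p = 0.015), Dnajc30 (0.63, adjusted p = 0.025) and Dnajc4 (0.64, adjusted p = 0.043). Scaling by library size alone gave 4 higher and 18 lower, beside 7.95% and 15.5% of all genes.

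Co-chaperones and regulators outside the set were read from a list of 46 genes. In iCKO 4 of them rose and 12 fell, with a median of -0.07, while 25.2% of all genes rose and 19.5% fell. Hsf1, which encodes heat shock factor 1, stood at 42.1, 41.6 and 46.3 CPM in CTR2 and at 28.3, 28.8 and 23.5 CPM in iCKO, and fell by 0.69 ± 0.14 (adjusted p = 0.0054). Stip1, the adaptor that links HSP70 and HSP90, rose by 1.26 ± 0.15 (adjusted p = 3.8e-04), and Bag2, a nucleotide exchange factor of HSP70, by 1.03 ± 0.16 (adjusted p = 0.0011). Fkbp4, an HSP90-bound prolyl isomerase, fell by 1.74 ± 0.19 (adjusted p = 3.1e-04), and in mCKO it had -0.45 (adjusted p = 0.0021) with the block and an adjusted p of 0.40 without it. Of the 25 HSP70 and HSP90 partners 3 rose and 3 fell, smaller shares than among all genes, and 1 of 9 prefoldin and CCT helpers, Pdcl3, rose.

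Mitochondrial chaperones and proteases on that list fell in 7 of 9 cases in iCKO and rose in none, beside 19.5% and 25.2% of all genes. Hscb, the J protein of iron-sulfur cluster assembly, whose symbol lies outside the naming rule, fell by 1.33 ± 0.23 (adjusted p = 0.0023), and Clpx, the unfoldase of the ClpXP protease, by 1.12 ± 0.21 (adjusted p = 0.0034). Trap1, the mitochondrial HSP90, fell by 0.68 ± 0.13 in iCKO (adjusted p = 0.0040). In mCKO Trap1 stood at 147, 145.5 and 114 CPM against 234, 222 and 205 CPM in CTR1, with -0.70 ± 0.14 (adjusted p = 0.23) without the block and -0.71 ± 0.07 (adjusted p = 1.7e-04) with it. Under the block 4 of the 9 mitochondrial genes and 7 of the whole list fell in mCKO and 0 rose, beside 6.45% and 7.32% of all genes, and without the block 0 were called. The heart muscle marker sums given above were lower in the same iCKO libraries, and their part in these falls was not tested.

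The 9 members that were not tested had low counts throughout. They were Cct6b, Cct8l1, Dnajb3, Dnajb7, Dnajb13, Dnajc5b, Dnajc5g, Dnajc6 and Dnajc22, of which Dnajb7 and Dnajc5g appeared only in the table of mCKO and CTR1. Dnajb3 had counts of 2, 0 and 4 in CTR1 and 8, 8 and 30 in mCKO, and of 2, 0 and 1 in CTR2 and 3, 11 and 11 in iCKO. Dnajc6 had 2 to 12 counts in every library, and the other 7 had at most 12. A library with 0 counts allows up to 3, or between 0.106 and 0.157 CPM.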

How the data were processed

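Left ventricle RNA of 4 groups of 3 male mouse libraries was compared, with groups and replicate numbers from the titles, genotypes and treatments in the labels. Per the labels' protocols, Trizol was used for extraction and a stranded TruSeq mRNA kit for the libraries. The submitters' processing notes name HISAT2, DESeq and GRCm38. Not given in the sources used here are versions, annotation, counting tool and strand setting. The authors deposited whole-number gene counts, 1 table of 17260 genes for mCKO and CTR1 and another of 17325 genes for iCKO and CTR2, with 16673 genes in both. A library holds between 19682268 and 25871882 counts, and limits for a count of 0 cover counting error only.

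From these counts, edgeR 4.0.16 in R 4.3.3 gave TMM-scaled CPM and robust quasi-likelihood tests of all genes that passed filterByExpr (minimum count 10, minimum total 15), adjusted by Benjamini-Hochberg and called under 0.05. Each knockout was tested against its own controls, and the difference between models in 1 fit of the 12 libraries over the shared genes. The procedure was also run on simulated counts with known fold changes. The outcome is not given here, and no result rests on it. Alternatives were library-size and RLE scaling, no filter, a minimum count of 30, DESeq2 1.42.0, limma-voom 3.58.1, the replicate number as a block, and leaving out each library. Same-numbered libraries of CTR1 and mCKO deviated together (r = 0.466, 0.534 and 0.824 over the deviations of genes from the group means, each over the limit of 0.1), but replicates 1 and 2 did so as strongly across numbers (r = 0.531 and 0.553) and only the replicate 3 libraries stood apart, which is a sign from the data, since no label explains the number. In the other experiment they did not (r = 0.062, -0.089 and -0.161).

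Level per kilobase used the length of the principal transcript in GENCODE M21, to which all 71 members matched by symbol. Cct6a had no principal transcript marked, and its longest one, of 2454 bases, was used. Promoter windows came from RefSeq (GRCm38.p6). Values in every library are given for a fixed core of family members and for up to 6 called members per direction and comparison, ranked by adjusted p, with the block in mCKO. Other members are given when called, or by count and range. From a list of 46 co-chaperones and regulators up to 6 called genes per comparison are named, and other genes of it, as well as those outside this rule, were named after their values were seen. The members, the list and the cell type markers were chosen with earlier results of these data known.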

Additional observations from a re-analysis of the deposited data

Results flagged for a closer look

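For 14 members the change in mCKO differed from the change in iCKO in the test of the difference itself (edgeR, all 12 libraries, mCKO effect minus iCKO effect on the log2 scale), beside 20.8% of all genes tested. The difference was -3.62 for Hspa1a (adjusted p = 8.3e-04) and -2.77 for Hspa1b (adjusted p = 2.3e-04), the inducible HSP70 genes, which were 14.3-fold and 9.36-fold higher in iCKO than in CTR2. It was -1.35 for Hsp90aa1, -1.03 for Hspa13 and -0.98 for Hsph1. Among the CCT subunits it was -1.32 for Cct3, -1.19 for Cct6a, -0.88 for Cct5, -0.85 for Cct8 and -0.83 for Cct2. In the other direction, the J proteins that fell in iCKO gave 2.35 for Dnajc28, 0.97 for Dnaja3, 0.87 for Dnajc27 and 0.76 for Dnaja2. The 2 models differ in tamoxifen, in the Cre used, in the time since deletion and in the deposited table. They may also differ in age, which is given only for mCKO and CTR1. These differences cannot be told apart.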

How the results depend on the processing

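Depth limited the 9 members with at most 30 counts in any library, and with 3 libraries a group most single calls near 0.05 moved with the library left out; the cause was not tested. No called member changed sign in the alternatives run, but the balance of higher against lower calls in mCKO did turn. In mCKO, DESeq2 called 1 member higher. With the replicate block 2 were higher and 3 lower, with the block and library-size scaling 8 and 1, and with the block in DESeq2 1 and 2. Leaving out libraries gave 0 to 3 higher and 0 to 2 lower, the upper values being those without both replicate 3 libraries (3 and 2). In iCKO, leaving out libraries gave 13 to 22 higher and 8 to 16 lower. The replicate block, where the numbers do not pair the libraries, gave 20 higher and 9 lower, and with library-size scaling 26 and 6. For the difference between models, library-size scaling gave 18 lower and DESeq2 16. The block gave 7 higher and 11 lower, the block in DESeq2 8 higher, and the block with library-size scaling 21 lower. Leaving out libraries gave 3 to 10 higher and 10 to 14 lower.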
